A study of Mus musculus with 2 samples.

Results

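The miR-378 genes of the mouse adrenal gland were examined through 3 rows of the deposited miRNA count tables, Mir378a, Mir378b and Gm25301, out of 2202 annotated miRNA genes. They were chosen by name: Mir378a and Mir378b as genes of the miR-378 family, and Gm25301 because it is annotated on the other strand across the whole of Mir378a. The only other annotated genes with that family name, Mir378c and Mir378d, are described beside them. Small RNA under 30 nucleotides was sequenced from adrenal glands of 2 female B6CASTF1/J mice, 25 days old, obtained from The Jackson Laboratory. These animals are F1 hybrids of C57BL/6 and the wild-derived CAST strain, with no treatment named, and every animal belonged to the same group. Each library came from 1 gland sample, and the labels number the animals separately while giving a common donor identifier. Differences below therefore set 1 library against another, with 1 library per animal, and are not differences between conditions.

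The miR-378 microRNA of mammals is cut from an intron of Ppargc1b, the gene of PGC-1β. PGC-1β is a transcriptional coactivator that, with the estrogen-related receptors, drives genes of mitochondrial biogenesis and fatty acid oxidation. The intronic gene is known for targets of its miRNAs: Crat, which encodes the mitochondrial enzyme carnitine acetyltransferase, and Med13, a subunit of the Mediator complex. It is also known for the abundance of miR-378 in muscle and brown fat. In the adrenal cortex, mitochondria house the side-chain cleavage enzyme that opens steroid synthesis from cholesterol. A miRNA recognises its targets mainly through the seed, bases 2 to 8 of the mature strand.

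The mature sequences of 3 family genes are shown. Reads can be given to 1 gene or another only by the few bases in which the genes differ. The sequence source held no entry for Mir378a or Gm25301, so the bases that set Mir378a apart from the others are not shown. The seed is in capitals, each sequence runs 5′ to 3′, and all are from RefSeq on GRCm38.p6, where Mir378b, Mir378c and Mir378d were matched by symbol.
miR-378b: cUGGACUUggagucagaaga
miR-378c: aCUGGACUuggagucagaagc
miR-378d: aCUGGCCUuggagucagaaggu
With positions counted from 1 at the 5′ end of miR-378c, miR-378b lacked the first base and differed by C21A, with 19 of 20 aligned bases identical. Against miR-378c, miR-378d carried A6C and C21G, with 19 of 21 bases identical. The change A6C lies inside the seed, and the missing first base of miR-378b moves its seed along by 1 base, so the 3 mature miRNAs had 3 different seeds. The longest run shared by miR-378b and miR-378c was 19 bases, and 14 bases were common to all 3.

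The hairpins are shown to place the mature strand, in capitals, within each precursor.
Mir378b hairpin: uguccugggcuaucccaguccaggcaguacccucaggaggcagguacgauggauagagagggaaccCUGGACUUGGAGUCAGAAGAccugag
Mir378c hairpin: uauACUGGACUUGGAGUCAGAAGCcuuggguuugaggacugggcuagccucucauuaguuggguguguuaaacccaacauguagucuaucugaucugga
Mir378d hairpin: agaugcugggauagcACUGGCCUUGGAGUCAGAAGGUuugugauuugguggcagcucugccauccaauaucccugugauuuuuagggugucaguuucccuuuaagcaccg
The mature strand lay at bases 67 to 86 of 92 in Mir378b, on the 3′ side. It lay at bases 4 to 24 of 99 in Mir378c and at bases 16 to 37 of 110 in Mir378d, on the 5′ side of both. The family sequence was thus annotated on opposite sides of the hairpin in Mir378b and in the other two. RNAfold gave minimum free energies of -31.1, -27.0 and -35.0 kcal per mol for Mir378b, Mir378c and Mir378d. In these predicted folds 15 of 20, 15 of 21 and 13 of 22 mature bases were paired.

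On the minus strand of chromosome 18 in mm10, Mir378a (ENSMUSG00000105200.1) is annotated from base 61397835 to base 61397900, a length of 66 bases. It lies on the same strand as Ppargc1b (bases 61298136 to 61400431), in intron 1 of all 3 annotated transcripts, 2389 bases downstream of the first exon. Gm25301 (ENSMUSG00000093026.1), an Ensembl miRNA gene model, spans bases 61397813 to 61397925 on the plus strand, 22 bases beyond Mir378a on one side and 25 on the other. The nearest other miRNA genes were Mir145a and Mir143, of smooth muscle and fibroblasts, 250 and 251 kb away on the same strand. The other family genes have no host gene on their own strand. Mir378b (ENSMUSG00000092985.1, chromosome 11, bases 88352773 to 88352864, plus strand) lies opposite an intron of Msi2, a gene of an RNA-binding protein. Mir378c (ENSMUSG00000099036.1, chromosome 14, bases 46954830 to 46954928, minus strand) lies opposite an intron of Samd4, also an RNA-binding protein gene. Mir378d (ENSMUSG00000098756.1, chromosome 10, bases 126710282 to 126710391, minus strand) lies in no other annotated gene.

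By counted reads, Mir378a was among the most abundant miRNA genes of the gland, and the other family genes were far lower. Mir378b, the lowest of them, had 20 and 15 reads. The deposited tables hold an unstranded count and a count for each strand, and levels (CPM) are a gene's own-strand count scaled to 1000000 such counts, of which there were 2244073 in library 1 and 3912280 in library 2. Mir378a had 108403 reads in library 1 and 155048 in library 2, or 48306 and 39631 CPM, with a mean of 43969 ± 6134 CPM (SD, n = 2). These were 4.83% and 3.96% of all own-strand counts. Library 1 was the higher of the 2 libraries. By mean level Mir378a ranked 6 of 2202 genes, with rank 5 in library 1 and rank 7 in library 2.

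Mir378b, the other family member of the set, had 20 reads in library 1 and 15 in library 2. Its level was 8.91 CPM in library 1 (95% Poisson interval 5.44 to 13.8) and 3.83 CPM in library 2 (2.15 to 6.32). Both values are above the floor of 3 reads, which is 1.34 CPM in library 1 and 0.767 CPM in library 2. Mir378c had 112 and 128 reads, or 49.9 CPM (41.1 to 60.1) and 32.7 CPM (27.3 to 38.9). Mir378d had 58 and 103 reads, or 25.8 CPM (19.6 to 33.4) and 26.3 CPM (21.5 to 31.9). In both libraries Mir378b was the lowest of the 4 family genes, and its intervals did not overlap those of Mir378c and Mir378d. Mir378c was above Mir378d in library 1, while in library 2 their intervals overlapped. All intervals cover counting error only.

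Of the reads counted at the 4 family genes, Mir378a held 99.83% in library 1 (95% exact binomial interval 99.80 to 99.85%) and 99.84% in library 2 (99.82 to 99.86%). The other 3 genes together had 190 and 246 reads. Per gene, Mir378a had 968 times the reads of Mir378c in library 1 and 1211 times in library 2. Divided by the annotated gene length the ratio was 1452 and 1817. The reads came from RNA under 30 nucleotides, and the counts give neither their lengths nor their positions within a gene. Whether the annotated length bears on these counts was not tested. Reads mapped to several places, 28.4% of all reads in library 1 and 27.5% in library 2, are in no gene count. Because the family carries near-identical mature sequences, the counts of all 4 genes, and the shares among them, are uncertain to that extent. Whether some reads counted at Mir378b, Mir378c and Mir378d came from Mir378a was not tested.

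**Figure D1:**
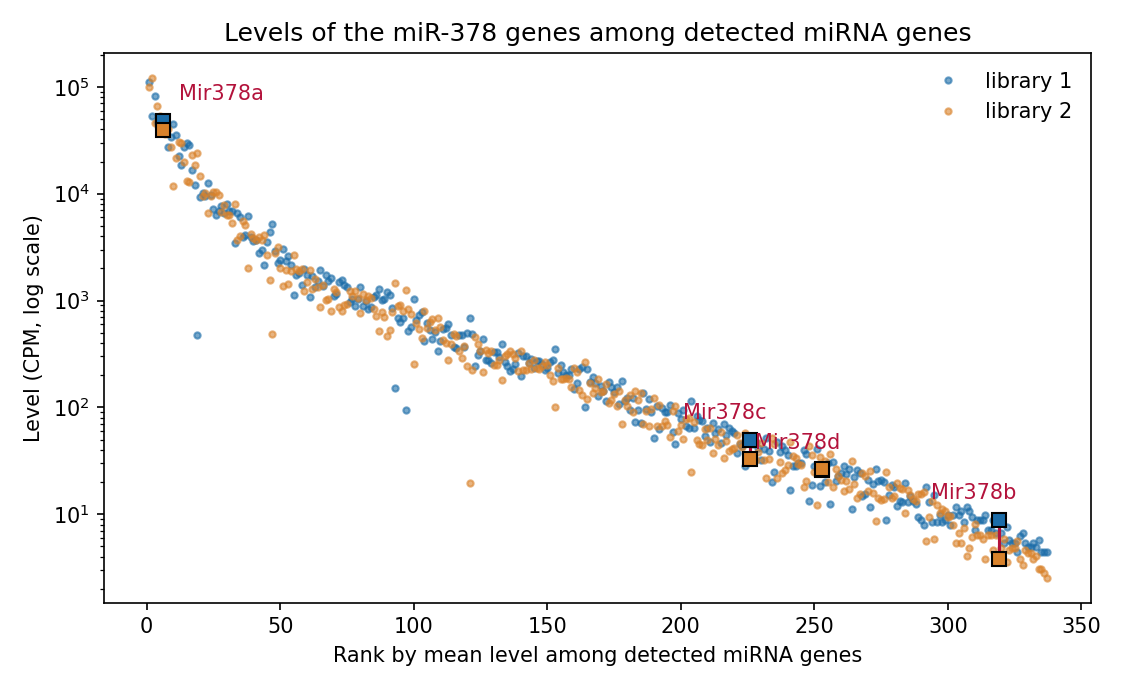
Level of each detected miRNA gene (10 or more reads in each library) in CPM on a log scale against its rank by mean level, with library 1 in blue and library 2 in orange. The squares mark the miR-378 genes: Mir378a stands near the top with 48306 and 39631 CPM, and Mir378b, Mir378c and Mir378d lie between 3.83 and 49.9 CPM.

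All reads at the Mir378a position came from the Mir378a strand. The row of Mir378a held 0 reads on the other strand in both libraries, which allows a share of up to 0.00277% in library 1 and 0.00193% in library 2. Gm25301 had 0 reads on its own strand in either library, against a floor of 1.34 and 0.767 CPM. The row of Gm25301 instead held 108404 and 155048 reads on the strand opposite to it, and these are the reads of Mir378a. Mir378a was thus at least 36134-fold higher than Gm25301 in library 1 and at least 51683-fold higher in library 2, each set against 3 reads per library. No expression of Gm25301 was detectable at this depth.

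Because Gm25301 is longer, its row also counts reads that touch only the bases beside the Mir378a hairpin. In library 1 the Gm25301 row held 1 read more than the Mir378a row, and in library 2 the rows were equal. That single read was counted on the Mir378a strand at Gm25301 and not at Mir378a, and the unstranded column gave 1 read to Gm25301 in that library.

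In the unstranded column Mir378a had 0 reads in both libraries. A read that overlaps a gene on each strand is set aside as ambiguous when strand is ignored, and Mir378a made up 35.6% of the ambiguous reads of library 1 (304528 reads) and 18.6% of those of library 2 (833566 reads). Mir378b, Mir378c and Mir378d, which have no miRNA gene opposite, had the same counts with and without strand. Without strand, the tables thus held family reads at Mir378b, Mir378c and Mir378d and none at Mir378a.

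**Figure D2:**
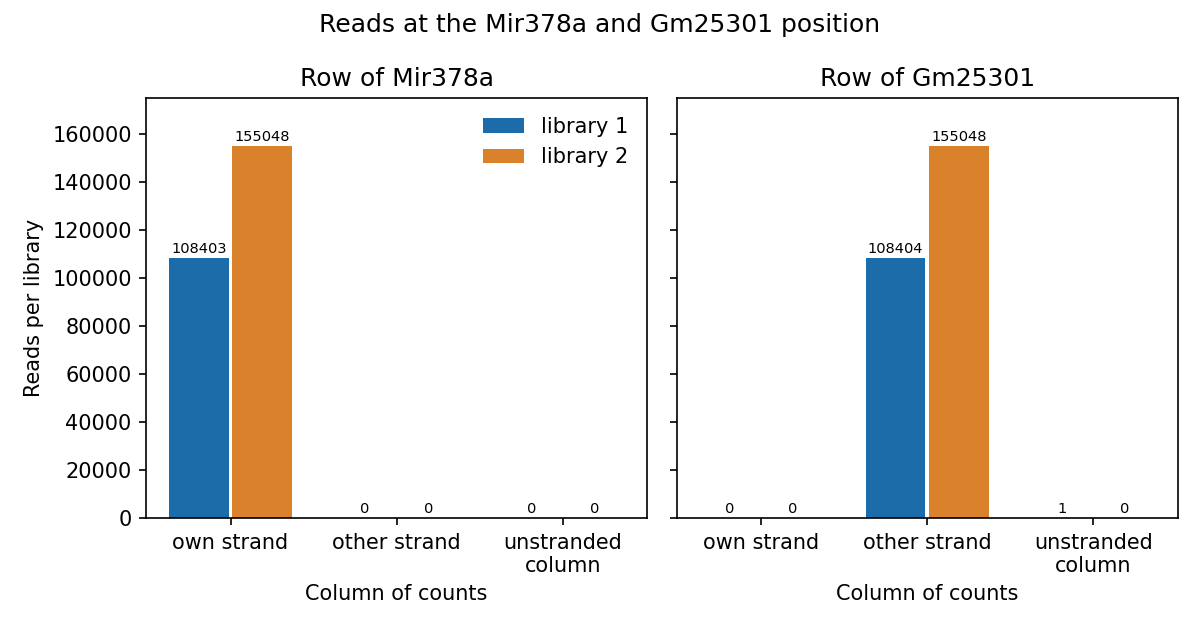
Reads per library (blue library 1, orange library 2) in each column of counts for the rows of Mir378a, left, and Gm25301, right, with the count above each bar. The 108403 and 155048 reads appear on the strand of Mir378a and again opposite Gm25301, while the unstranded column holds 0 or 1.

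Such opposite annotation is shared with other genes. Of 64 miRNA genes with a miRNA gene opposite, 10 pairs had 1000 or more reads in each library, and in 8 of them, that of Mir378a included, the weaker gene had 0 reads in both libraries. The exceptions were Mir126b, opposite the endothelial Mir126a, with 7 and 13 reads, and Mir3544, opposite Mir337 of the Dlk1-Dio3 cluster, with 42 and 56 reads. The Mir126a pair took 39.6% of the ambiguous reads in library 1 and 56.8% in library 2. The pair of the erythroid Mir451a took 0.354% and 11.4%, and those of Mirlet7e, Mir191 and Mir30e took between 2.94% and 9.23%. The pairs of Mir409, Mir497 and Mir376a had 0 reads on the weaker side and took under 1% each. The pair of Mir378a and Gm25301 thus ranked behind that of Mir126a in each library.

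**Figure D3:**
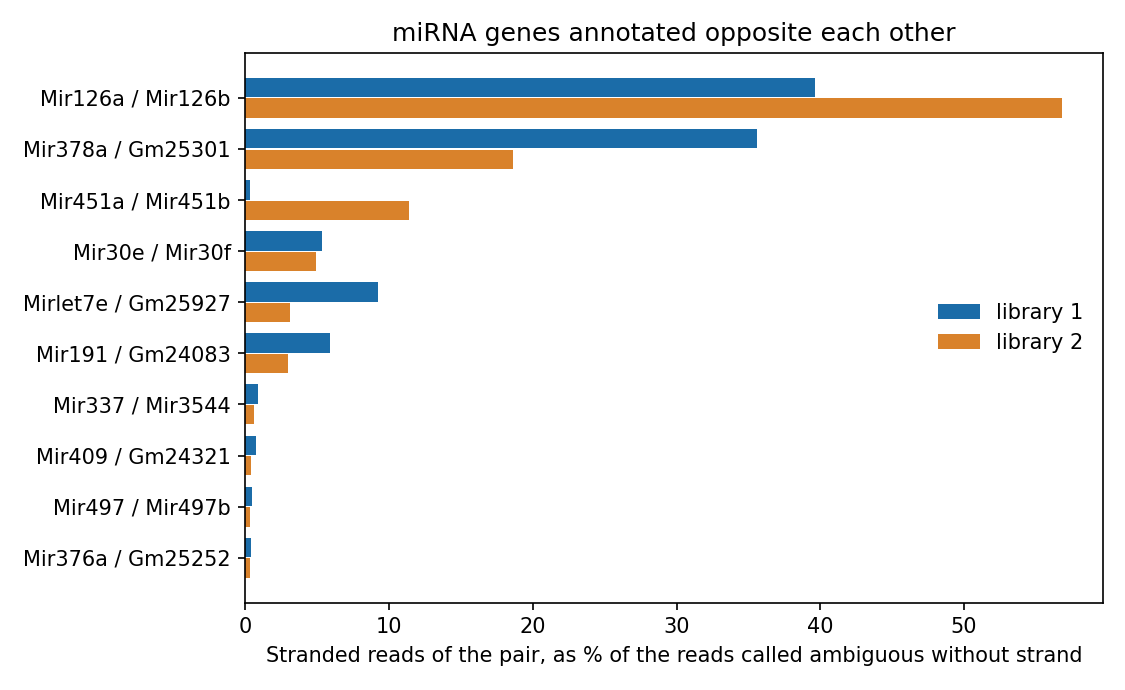
Stranded reads of each pair of miRNA genes annotated opposite each other, as a percentage of the reads that the unstranded column set aside as ambiguous, in library 1 (blue) and library 2 (orange). The pair of Mir378a and Gm25301 made up 35.6% and 18.6%, behind that of Mir126a and Mir126b with 39.6% and 56.8%.

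The 733 intronic miRNA genes lie in an intron of a protein-coding gene on its strand, without touching an exon of such a gene. Among them Mir378a ranked 2 by counted reads in both libraries, with reads mapped to several places left out. It held 13.1% of the reads of such genes in library 1 and 12.2% in library 2. Mirlet7g in Wdr82, of the let-7 family that restrains growth genes, was above it with 105134 ± 7328 CPM (SD, n = 2). Below it were Mir23b in 2010111I01Rik with 30697 ± 4895 CPM, Mir26b in the phosphatase gene Ctdsp1 with 23399 ± 5192 CPM and Mir139 in the phosphodiesterase gene Pde2a with 21446 ± 11589 CPM (SD, n = 2). Mir378a was higher than each of these 3 genes in both libraries. The 110 detected intronic genes had a median of 150 CPM and all 337 detected genes a median of 156 CPM (this difference was not tested).

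Next to Mir378a in level were Mir10a and Mirlet7i above, and the endocrine Mir375 and Mir143 below, by rank of the mean over 2 libraries. Mir10a, a miRNA of the Hoxb cluster, had 47032 and 66456 CPM, and Mirlet7i had 51890 and 53584 CPM. Mir375 had 37574 and 36561 CPM, below Mir378a in both libraries. Mir143 had 27293 and 40553 CPM, below Mir378a in library 1 and above it in library 2, and Mir10a likewise changed sides. The order of Mir378a with Mir10a and Mir143 thus depended on the library.

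Mir378a was nearly level between the libraries. An exact binomial test (two-sided, on TMM-scaled library sizes, adjusted over all genes by Benjamini and Hochberg) was run on the 411 genes with a sum of at least 10 reads. It called 240 of them, or 58.4%, at an adjusted p of 0.05, so a call of a family gene is what most tested genes had. Mir378a was 1.15-fold higher in library 1, with a log2 ratio of library 2 over library 1 of -0.20 (95% counting interval -0.21 to -0.19, adjusted p = 5.33e-264 in the exact binomial test). Of the 337 detected genes, 253 had a larger ratio in either direction, and the median size of the log2 ratio was 0.47. It was not among the 31.4% of tested genes that were called with a fold of 1.5 or more. The log2 ratio stayed below 0 under every scaling tried, from -0.29 with library sizes alone to -0.03 with TMM on all genes without a filter. The last scaling moved all ratios up by a median of 0.17, and the share of called genes that were higher in library 2 was 61.7% there against 50.4% in the main test.

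Mir378b was 2.17-fold higher in library 1, with a log2 ratio of -1.12 (interval -2.20 to -0.09, adjusted p = 0.0397 in the exact binomial test). With 35 reads in all this call was lost with DESeq2 size factors, where the adjusted binomial p was 0.0618, and over all settings tried the value ran from 0.0247 to 0.166. Mir378c was 1.44-fold higher in library 1, with a log2 ratio of -0.52 (-0.90 to -0.14, adjusted p = 0.0120 in the same exact test), a call lost without the filter on low counts (adjusted binomial p = 0.165). Mir378d had a log2 ratio of 0.11 (-0.37 to 0.60) and was not called (adjusted p = 0.777 in the exact test). The intervals of all 3 low genes held the ratio of Mir378a, -0.20, so no difference from it was detectable at this depth. Gm25301, with 0 reads, was not tested.

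**Figure D4:**
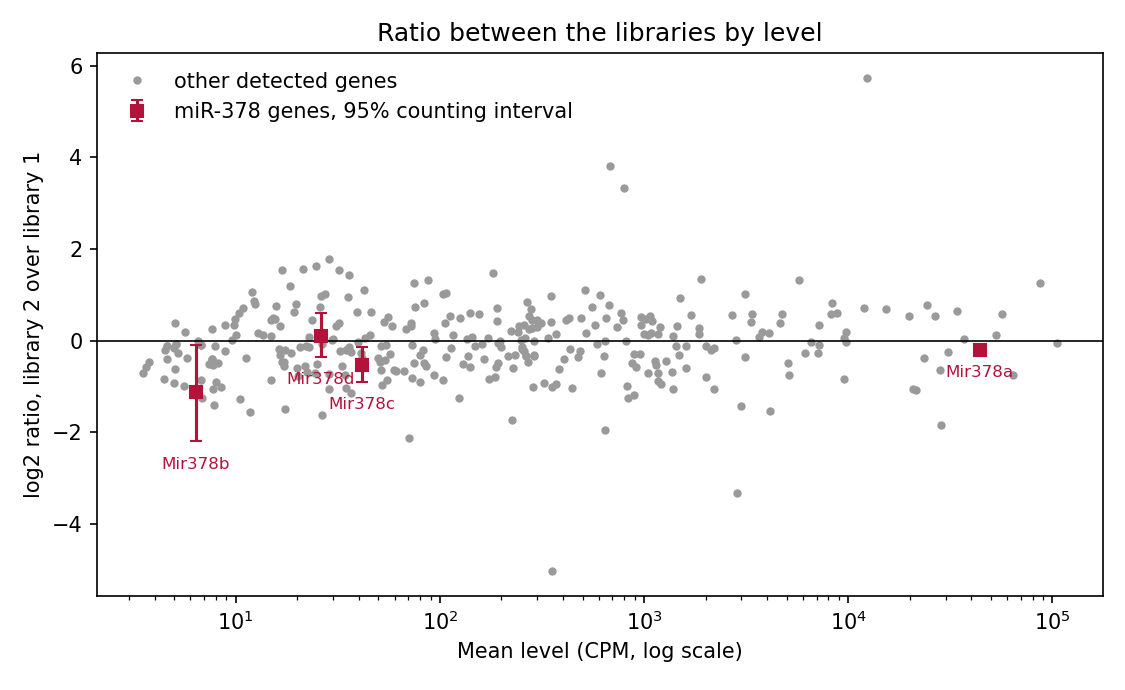
Log2 ratio of library 2 over library 1 against mean level in CPM (log scale) for the detected miRNA genes, in grey, with the 4 miR-378 genes in red and their 95% counting intervals. Mir378a sits at -0.20 at the right, with an interval too narrow to see, and Mir378b at -1.12 with an interval from -2.20 to -0.09.

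The nearest miRNA genes on the chromosome had ratios outside the counting interval of Mir378a. That interval covers counting error alone and is narrow. Of the 337 detected genes, 253 had a larger ratio than Mir378a in either direction, so this is not particular to the neighbours. Mir143 was 1.58-fold higher in library 2, with a log2 ratio of 0.66 (0.64 to 0.67). Mir145a, which shares its primary transcript, had 847 and 789 CPM and a log2 ratio of -0.02 (-0.10 to 0.07), with an adjusted p of 0.807 in the exact binomial test. The 4 other miRNA genes within 1 Mb had at most 5 reads in a library.

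Since miR-378 is best known from brown fat and oxidative metabolism, it was set beside 26 other miRNA genes studied in those settings. Of these 22 were detected, and in both libraries Mir378a was above every one of them. With rank 5 in library 1 and rank 7 in library 2 among all 2202 genes, Mir378a was above most genes of any kind. Among the 22 genes Mir22 came closest, with 44951 CPM in library 1 and 11830 CPM in library 2. Mir27b, an inhibitor of brown fat differentiation, had 6545 and 3684 CPM, and its paralog Mir27a 1328 and 921 CPM. Mir93 and Mir106b of the Mcm7 cluster had means of 3330 ± 521 and 1457 ± 171 CPM (SD, n = 2). Mir455, which promotes brown fat differentiation, had 1541 and 790 CPM, Mir328 1721 and 1488 CPM and Mir203 1330 and 763 CPM.

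The pair Mir193b and Mir365-1, which promotes the brown fat lineage, was low in counted reads. Mir193b had 203 and 190 CPM, and Mir378a had 238 and 209 times its level. Mir365-1 had 10 and 22 reads, with 60 and 67 for its duplicate copy Mir365-2. Reads that fit both copies are in no gene count, so these counts do not give the level of miR-365. Of the 22 tested genes of the list, 9 were called higher in library 1, 6 were called higher in library 2 and 7 were not called, beside 58.4% called among all tested genes. Their median log2 ratio was -0.11, and that of all detected genes was -0.09. Mir133a-1, Mir133a-2 and Mir133b, inhibitors of brown fat that are made in muscle, had 0 reads in both libraries, and Mir199a-1 had 0 and 1. Mir133a and Mir199a, among others on the list, likewise have more than 1 gene copy.

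**Figure D5:**
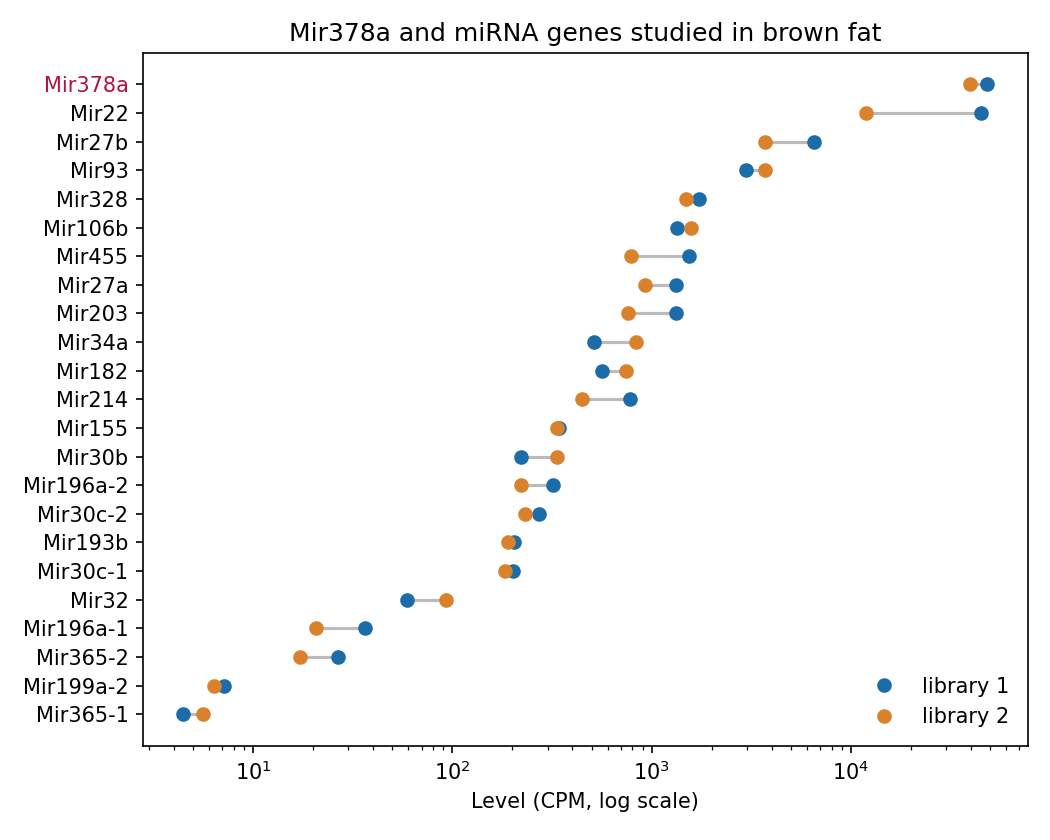
Level in CPM (log scale) of Mir378a and of the 22 detected miRNA genes studied in brown fat and mitochondrial metabolism, in library 1 (blue) and library 2 (orange). Mir378a, at 48306 and 39631 CPM, lies to the right of each of the others within its own library.

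Mir378a was also set beside a list of 9 other miRNA genes in host genes, drawn up for metabolic hosts. Not all hosts are metabolic genes: the list also held Mir208a in Myh6, Mir208b in Myh7, Mir499 in Myh7b and Mir338 in Aatk. Mir139 in Pde2a had 29641 and 13251 CPM. By counted reads it was the only one of the other 9 within 10-fold of Mir378a in both libraries. Reads that fit both Mir103-1 and Mir103-2, which are on the list, are in no gene count, so the level of miR-103 is not given. Mir107, in the coenzyme A synthesis gene Pank1, had 2153 and 4098 CPM. Mir33, which lies in the cholesterol regulator gene Srebf2 and represses cholesterol export, had 22.7 CPM in each library. Of the 7 other genes of this list that were tested, 2 were called higher in library 1, 2 in library 2 and 3 in neither, again beside 58.4% called among all tested genes.

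Markers of cell types that could carry miR-378 into the sample were measured as well. The adipose markers Mir193b, Mir365-1 and Mir455 are given above, and together these 3 genes took 0.175% and 0.0986% of the reads. Of 9 striated muscle genes none was detected, with 13 reads in each library in all and 6 genes at 0 in both. The reads were those of Mir206 with 9 and 5, Mir499 with 3 and 8, and Mir208b with 1 and 0. Mir1a, Mir133a and the adipose marker Mir365 each have more than 1 gene copy, and reads that could not be placed at 1 copy are not counted. Endocrine markers were high in both libraries, at 4.15% and 4.21% of the reads. The share of the endothelial Mir126a was 5.38% in library 1 against 12.1% in library 2, and that of the red blood cell list was 0.0680% against 2.57%, most of it from Mir451a in library 2 (94842 reads). Mir486 of the same list went the other way, with a log2 ratio of -1.03. The liver gene Mir122 had 0.518% and 0.0491%. Of the 8 kidney and epithelial genes 5 were detected, and all 8 together had 0.0168% and 0.0126% of the reads. Fewer cells of a type and less of a miRNA per cell cannot be told apart in such bulk tissue, and the part of these markers in the Mir378a level was not tested. With the red blood cell genes, Mir126a and Mir122 taken out of the library sizes, the log2 ratio of Mir378a was -0.14.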

How the data were processed

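Per the labels, microRNA sequencing was done on 2 adrenal libraries of 1 group, and reads were mapped to mm10. The README files deposited with the tables name GENCODE M21. The authors deposited raw read counts per miRNA gene without normalization or pooling. Which aligner, counter and trimming were used is not given in the sources used here. No header names the columns, and they were read as unstranded, own strand and other strand from their layout and totals. Library 1 held 7938596 reads and library 2 held 11132685, of which 28.3% and 35.1% lay on the strand of a miRNA gene. Rows that name no gene stayed out of library sizes: unmapped reads were 33.8% and 27.8%, and reads outside miRNA genes 9.57% and 9.52%. Ambiguous reads, 3.84% and 7.49%, arose only in the unstranded column. In the own-strand column, which gave the library sizes, 0 reads were ambiguous.

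Symbols and positions came from GENCODE M21, and all 2202 identifiers matched. CPM, exact Poisson and Clopper-Pearson 95% intervals and exact binomial tests were computed with Python 3.11.15, scipy 1.17.1 and pandas 2.3.3. Scaling used TMM from edgeR 4.0.16 and, as an alternative, DESeq2 1.42.0 in R 4.3.3. With 1 group no quasi-likelihood test was possible. Log2 ratios have 0.5 read added to each count. Folds were predicted with RNAfold 2.7.2. The test was checked on simulated counts with counting error alone, as the test itself assumes. That check does not cover the spread between real libraries. Reads amplified by PCR carried no molecular identifiers and are not independent, so intervals cover counting error only, and p-values measure only the difference of these samples.

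Named genes are the miR-378 family, the 2 genes next above and below Mir378a by mean CPM, opposite pairs with 1000 or more reads in both libraries, the 5 highest intronic genes, and up to 8 detected genes of the brown fat list and 3 of other lists. Mir145a, Mir365-1, Mir365-2, Mir193b, Mir133a, Mir133b, Mir199a-1, Mir103-1, Mir103-2 and the muscle genes fall outside this rule. Their values were known when they were named. The members and lists were chosen with earlier results of these data known.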

Additional observations from a re-analysis of the deposited data

How the results depend on the processing

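With all mapped reads as the denominator the Mir378a level was 19958 CPM. In the unstranded column the Mir378a level was 0 CPM, its rank 728, tied with other genes at 0, and the Gm25301 level 0.258 CPM, from 1 read. With a fold of 1.5 required as well, the number of genes called fell from 240 to 129. Leaving out a library gives the single values, from 39631 to 48306 CPM for Mir378a and from 3.83 to 8.91 CPM for Mir378b. Of the 36 alternative values that kept both libraries, those above included, 27 kept their direction and call or moved by less than 1 SD. That is a loose limit with 2 libraries: the Mir378b level was 6.37 CPM, and 2.84 with all mapped reads as the denominator. Of the rest, 4 moved further, all given above, and 4 lost the call of Mir378b or Mir378c. Of these lost calls 3 were for Mir378b with its 20 and 15 reads. The last value is the fall to 129 genes called. How many reads mapped to several places belong to the family was not measured, and reads of the CAST chromosomes can map less well to the reference.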
